A study of Mus musculus with 16 samples.

Results

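The response of the epidermis to loss of *Sas-4* was compared between 2 stages in all 16 RNA-Seq libraries of the study. The quantity followed was a difference of differences. For each gene, the difference between mutant and control libraries in the embryo (E13.5, counted in days) was subtracted from the same difference at birth (P0). The 8 libraries of E13.5 came from sheets of back-skin epidermis. The 8 of P0 came from keratinocytes that were isolated from newborn skin and frozen unplated. Each of the 4 groups had 4 libraries. Stage and way of preparation went together and cannot be told apart. By their labels the controls of both stages were *Sas-4* fl/wt and the mutants *K14-Cre*+ *Sas-4* fl/fl. *K14-Cre* drives the recombinase from the keratin 14 promoter, which is active in the epidermis and other stratified epithelia. Cre was present in 0 of the 4 E13.5 libraries titled control and in 2 of the 4 P0 controls, so at E13.5 Cre and the floxed alleles cannot be told apart. In those 2 P0 controls Cre can also delete the floxed allele, so the P0 control group is mixed. At P0 the titles and the column names of the table of values give the same groups. At E13.5 they are opposed: the 4 libraries titled control have column names ending in mut, and the 4 titled mutant have names ending in ctrl. Every E13.5 direction below is therefore given for the libraries as titled, and it turns around when they are grouped by column name. The stage difference was computed both ways. By title it is the P0 difference minus the E13.5 difference, and by column name it is their sum.

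*Sas-4*, listed as *Cenpj*, encodes a protein that centrioles need in order to form and duplicate. Cells without centrioles divide slowly, and a surveillance pathway that runs through 53BP1 and USP28 then stabilizes p53. p53 is a transcription factor that switches on genes of cell cycle arrest, apoptosis, repair and metabolism. At E13.5 the mouse epidermis is a thin, rapidly growing epithelium in which stratification and the first hair placodes begin. At P0 it has a full set of spinous, granular and cornified layers and growing hair follicles.

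*Cenpj* (ENSMUSG00000064128, mm10 chr14:56526761-56571846, minus strand) was the check of the labels. Its values were 3.72, 3.85, 3.56 and 3.66 FPKM (fragments per kilobase of transcript length, scaled to the mapped fragments of a library) in the E13.5 libraries titled control 1 to 4. In those titled mutant they were 9.17, 8.66, 9.02 and 8.74 FPKM. The P0 controls had 4.35, 3.35, 3.22 and 4.29 FPKM and the P0 mutants 1.52, 1.41, 1.35 and 1.09 FPKM. No library of one genotype overlapped the other at either stage, and the libraries titled mutant were the higher ones at E13.5 and the lower ones at P0. The difference on the log2(FPKM + 1) scale, used for every log2 value below, was 1.08 at E13.5 and -1.03 at P0 (standard error 0.09 each). The stage difference was -2.11 by title (standard error 0.12, adjusted p = 3.23e-09) and 0.04 by column name (standard error 0.12, adjusted p = 0.82). By column name the gene of *Sas-4* was thus lower in mutants by about the same amount at both stages, and by title it moved in opposite directions. Neither grouping was taken as the right one here. The direction that the study reports at E13.5 is given with the p53 targets below.

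Each stage came as a table of its own, normalized on its own, so levels were compared only within a stage and only differences were compared between stages. FPKM summed to 546593 to 584238 per E13.5 library and to 605744 to 740238 per P0 library, and the tables hold no read numbers, so sequencing depth is unknown. Genes with at least 1 FPKM in at least 4 of the 8 libraries of each stage were tested, 11858 of 49452, while 1008 more passed at E13.5 only and 1175 at P0 only. A gene could pass through 1 group alone, with every library of the other group under 1 FPKM, as 64 did at E13.5 and 167 at P0. Of the 167, 92 are among the genes called below as responding at P0 only. Genes that passed this way had to differ at that stage. This also holds for 5 of the genes called at E13.5 only. Of those called at both stages, it holds for 41 at E13.5 and 45 at P0. These counts leave out genes that needed 1 group to pass while some libraries of the other reached 1 FPKM. At P0 *Nrg1*, *Ddit4l* and *Eda2r* were such genes. A limma model (a linear model that shares information on the spread between genes) was fitted to all 16 libraries, with p-values adjusted by Benjamini-Hochberg over the 11858 genes and a threshold of 0.05. The median spread between libraries of a group was 0.0877 on the log2 scale at E13.5 and 0.164 at P0, and the shared fit uses 1 spread per gene for both. Nothing in the labels says that libraries of a group came from separate animals, so p-values measure the spread between these libraries. The added 1 FPKM understates the fold change of genes with low values. *Krt14*, the keratin of the basal layer, had 910 to 1092 FPKM in the E13.5 libraries and 6670 to 17208 FPKM at P0. Y-linked genes were read in 1 of 4 libraries of each group but the P0 mutants, where they were read in 3 of 4.

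With all 16 libraries in the fit, more genes passed at P0 than at E13.5, and most genes that responded at both stages did so in opposite directions by title. Of the 11858 genes, 6299 (53.1%) differed between mutants and controls at P0, 1725 higher (14.5%) and 4574 lower (38.6%) in mutants. At E13.5, 1222 genes (10.3%) differed, 528 higher (4.45%) and 694 lower (5.85%) in the libraries titled mutant. The median size of the difference was 0.266 at P0 and 0.114 at E13.5 on the log2 scale. When each stage was fitted on its own, 3152 genes passed at E13.5 and 4800 at P0. When such fits kept only the 2 P0 controls that carry *K14-Cre*, the order of the stages turned around, with 3099 genes at E13.5 and 2083 at P0. The E13.5 count was 718 without titled control 3, 756 without titled control 4, 360 without both (the 2 libraries that carry label number 67) and 2298 without P0 mutant 4. After median-of-ratios scaling the P0 calls split into 2866 higher and 2932 lower. Across the 11858 genes the differences at the 2 stages had a Pearson r of -0.34 by title, which is given as a description, since genes of a library are not independent.

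The stage difference passed for 5500 genes (46.4%) by title and for 3893 (32.8%) by column name. By title 1733 were higher (14.6%) and 3767 lower (31.8%), and by column name 899 (7.58%) and 2994 (25.2%). Of these genes, 2787 passed both ways, and for them the stage with the larger response does not depend on how the E13.5 libraries are grouped. The response was larger at P0 for 2601 (21.9%), of which 567 (4.78%) were higher and 2034 (17.2%) lower in P0 mutants. It was larger at E13.5 for 186 (1.57%), of which 38 (0.32%) were higher and 148 (1.25%) lower in the libraries titled mutant. P0 values carried a shift toward lower levels in mutants, with a median log2 difference of -0.15 over all genes against 0.00 at E13.5. After median-of-ratios scaling the P0 median was -0.01. The genes with a larger response at P0 then split into 1027 higher and 1096 lower, and the stage differences into 2558 and 2616 by title and 1568 and 1638 by column name. The excess of lower genes thus depends on the scaling.

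Genes were then sorted by the stages at which they passed. A response at P0 only (a larger response at P0 under either grouping, past the threshold at P0 and not at E13.5) was found for 2370 genes (20%), 505 higher (4.26%) and 1865 lower (15.7%) in mutants, or 936 and 964 after median-of-ratios scaling. A response at E13.5 only was found for 124 genes (1.05%), 37 higher (0.312%) and 87 lower (0.734%) in the libraries titled mutant, or 41 and 55 after that scaling. Without the libraries of label number 67 it was found for 50. Differences of more than 2-fold made up 393 of the former and 14 of the latter. The 854 genes (7.2%) called at both stages fell into 4 kinds. By title, 352 (2.97%) were lower at E13.5 and higher at P0, 360 (3.04%) were higher and then lower, 108 (0.911%) were lower at both stages and 34 (0.287%) were higher at both. Opposite directions by title, which are the same direction by column name, therefore held for 712 of the 854 (6% of all genes and 83.4% of the 854), while the signs were opposite in 60.9% of all genes tested. Same directions by title held for 142 (1.2%). The 4 mutant and 4 control libraries did not overlap for 28.6% of genes at E13.5 and 42.1% at P0, which is the background for each statement below that groups were apart.

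**Figure D1:**
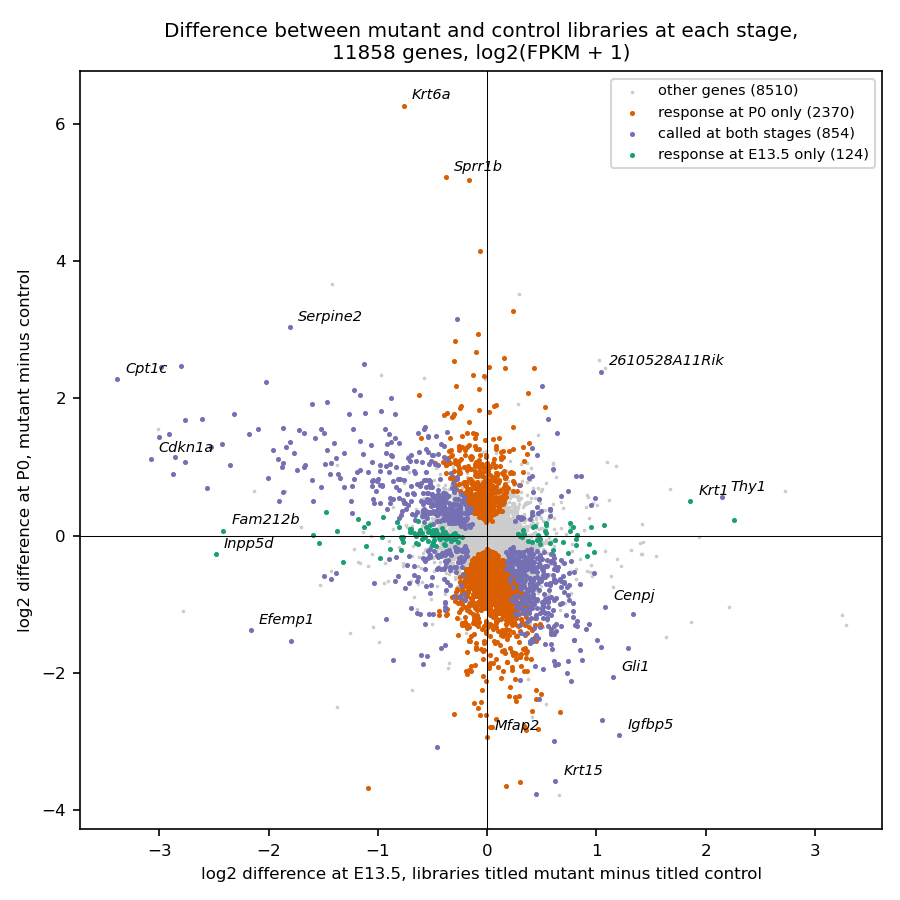
Each point is a gene, with its log2 difference at E13.5 (libraries titled mutant minus titled control) on the x axis and at P0 (mutant minus control) on the y axis, both on the log2(FPKM + 1) scale. Orange points (2370) responded at P0 only and lie along the vertical axis, green points (124) at E13.5 only along the horizontal axis, and most violet points (854, called at both stages) lie in the upper left and lower right, where the sign changes between stages by title.

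Many targets of p53 changed direction between stages by title and kept it by column name. The study reports *Bbc3*, *Pmaip1* and *Bax* among the genes upregulated in mutants at E13.5, which was their direction by column name here. Together the 3 lists of p53 targets held 59 tested genes, of which 40 were lower and 2 higher in the E13.5 libraries titled mutant, and 42 were higher and 8 lower in P0 mutants. The background over all genes was 5.85% lower and 4.45% higher at E13.5, and 14.5% higher and 38.6% lower at P0. Among 18 tested targets of arrest and feedback, 11 were lower at E13.5 and higher at P0, against 2.97% of all genes. The median log2 difference of the list was -0.94 at E13.5 and 0.78 at P0. Without the libraries of label number 67, 11 of 18 arrest genes, 9 of 15 of apoptosis and 9 of 20 of metabolism were lower at E13.5, against 14 of 18, 13 of 17 and 14 of 25 with them, so fewer genes were tested as well.

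*Cdkn1a*, which encodes the cell cycle inhibitor p21, had 64.1, 54.3, 74.2 and 73.4 FPKM in E13.5 libraries titled control and 7.99, 9.28, 4.97 and 6.10 FPKM in those titled mutant. At P0 it had 91.8, 111, 107 and 89.7 FPKM in controls and 193, 212, 231 and 240 FPKM in mutants. The groups did not overlap at either stage. The log2 difference was -3.08 at E13.5 and 1.12 at P0 (standard error 0.15 each), and both stage differences passed, at 4.21 by title (adjusted p = 9.74e-10) and -1.96 by column name (adjusted p = 5.47e-06). The response of *Cdkn1a* was thus larger at E13.5 under either grouping.

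*Ccng1*, the gene of cyclin G1, had 121 to 164 FPKM in the libraries titled control and 22.7 to 23.9 FPKM in those titled mutant at E13.5. In P0 keratinocytes it had 15.4 to 25 FPKM in controls and 54.6 to 82.6 FPKM in mutants. *Gtse1*, whose product binds p53 in G2 phase, went from 43.3 ± 1.66 to 20.4 ± 0.930 FPKM (mean ± SD, n = 4 libraries, here and below) at E13.5 and from 12 ± 0.469 to 21.7 ± 1.81 FPKM at P0. *Mdm2*, the ubiquitin ligase that degrades p53, showed smaller differences of -0.79 and 0.30 on the log2 scale. The latter did not pass in 6 of 30 other settings, among them P0 fitted on its own (adjusted p = 0.06). Together, 7 of the 18 genes of arrest and feedback, against 1.57% of all genes, had a larger response at E13.5 under either grouping. With median-of-ratios scaling or quantile normalization there were 4. A larger response at P0 was found for 2, against 21.9% of all genes. *Sfn*, a 14-3-3 gene of stratified epithelia, was among these 2, with 286 ± 13.3 and 265 ± 33.3 FPKM at E13.5 and with 840 ± 110 FPKM in controls and 2066 ± 85.2 FPKM in mutants at P0. The only member with the opposite signs, named after its values were seen, was *Btg1*, an antiproliferative gene (log2 difference 0.36 at E13.5 and -0.33 at P0).

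The start regions of these targets were searched for the p53 response element, taken here as a pair of 10-base copies without a gap, with up to 2 mismatches in the 20 bases and the central C and G of each copy intact. The element is its own reverse complement, so both strands were covered. Sequences run from 250 bases before to 50 bases after each start and come from RefSeq on GRCm38.p6, the same assembly as mm10. Of the 35 targets that were lower at E13.5 and higher at P0, 30 had a sequence by symbol and 5 of them a match, against 0.392% of 27025 genes. The lists were written as p53 targets, so this share is a description only. *Rps27l* and *Zfp365* were among the 5, and the other three are shown because their values open the account of this group, with the matched 20 bases in capitals.
Cdkn1a, chr17:29090729-29091028, plus strand: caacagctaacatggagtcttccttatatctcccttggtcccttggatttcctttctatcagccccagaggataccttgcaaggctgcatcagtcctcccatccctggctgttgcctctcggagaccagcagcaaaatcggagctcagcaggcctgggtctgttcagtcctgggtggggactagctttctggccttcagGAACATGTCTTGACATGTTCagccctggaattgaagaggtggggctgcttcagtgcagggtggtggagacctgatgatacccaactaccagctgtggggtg
Ccng1, chr11:40755237-40755536, minus strand: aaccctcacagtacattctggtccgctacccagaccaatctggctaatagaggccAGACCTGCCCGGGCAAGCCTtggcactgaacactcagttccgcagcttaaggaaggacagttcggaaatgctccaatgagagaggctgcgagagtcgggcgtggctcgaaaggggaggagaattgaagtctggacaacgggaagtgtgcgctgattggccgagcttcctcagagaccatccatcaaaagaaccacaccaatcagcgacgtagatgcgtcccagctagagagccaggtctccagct
Gtse1, chr15:85859696-85859995, plus strand: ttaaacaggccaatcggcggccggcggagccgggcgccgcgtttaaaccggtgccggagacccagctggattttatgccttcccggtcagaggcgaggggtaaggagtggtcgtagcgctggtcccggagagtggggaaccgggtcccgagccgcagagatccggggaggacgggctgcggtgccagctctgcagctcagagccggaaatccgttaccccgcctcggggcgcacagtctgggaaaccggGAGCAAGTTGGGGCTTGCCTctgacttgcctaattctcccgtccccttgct
Each of the 3 windows held its match with 1 mismatch. The match began 51 bases before the start of the window shown in *Cdkn1a*, 195 before it in *Ccng1* and 1 before it in *Gtse1*. The search covered 32851 starts of 27025 genes, so a gene could have more than 1. Whether the start shown is the main one of its gene was not tested.

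Targets of apoptosis followed the same pattern. Of 17 tested, 12 were lower at E13.5 and higher at P0, against 2.97% of all genes, and none was called at both stages with other signs. *Bbc3*, which encodes the BH3-only protein PUMA, had 10.1, 8.04, 9.73 and 8.32 FPKM in E13.5 libraries titled control and 1.34, 1.84, 1.16 and 1.65 FPKM in those titled mutant. At P0 its values were 7.84, 8.26, 11.1 and 6.65 FPKM in controls and 13.4, 18.9, 16.2 and 14.9 FPKM in mutants. *Bbc3* had a larger response at E13.5 under either grouping, with stage differences of 2.85 by title and -1.17 by column name (standard error 0.19, adjusted p = 1.69e-08 and 0.000313).

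*Pmaip1*, which encodes the related protein NOXA, changed by nearly equal amounts. Its log2 difference was -1.49 at E13.5 and 1.5 at P0, and the stage difference by column name was 0.01 (standard error 0.21, adjusted p = 0.973). *Bax*, the pore-forming effector of mitochondrial apoptosis, had 150 to 169 FPKM in libraries titled control and 74.9 to 78.4 FPKM in those titled mutant at E13.5, and 55.4 to 62.4 against 86.8 to 122 FPKM at P0. The death receptor gene *Fas* had 2.09 to 3.56 and 0.0907 to 0.230 FPKM at E13.5, and 1.80 to 2.23 and 4.37 to 9.08 FPKM at P0. At E13.5 *Fas* was under 1 FPKM in every library titled mutant and passed the filter through the titled controls alone. Stage differences by column name did not pass for *Bax* (-0.23, adjusted p = 0.125) or *Fas* (-0.56, adjusted p = 0.0661). *Perp*, a membrane protein gene of desmosomes that p53 and p63 both activate, responded at P0 only, from 1092 to 1274 FPKM in controls to 1710 to 1912 FPKM in mutants, while its E13.5 groups overlapped.

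**Figure D2:**
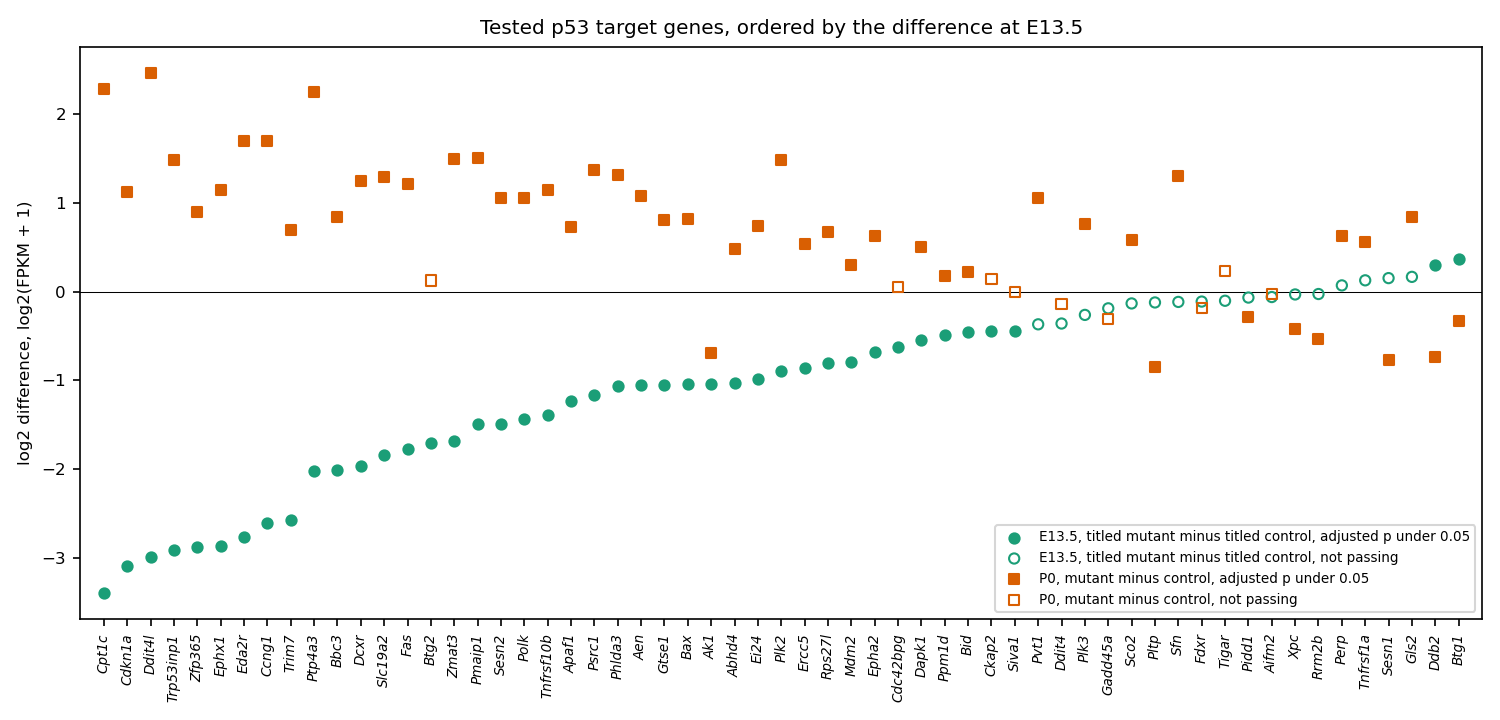
The 59 tested p53 targets along the x axis, ordered by their difference at E13.5, with the log2 difference at E13.5 (circles, libraries titled mutant minus titled control) and at P0 (squares, mutant minus control) on the y axis, filled where the adjusted p is under 0.05. Most filled circles lie below 0 (40 genes) under filled squares above 0 (42 genes), and the exceptions at the right end include *Ddb2* and *Btg1*.

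Of 25 tested p53 targets of metabolism, mTOR control and repair, 13 were lower at E13.5 and higher at P0, against 2.97% of all genes. *Cpt1c*, a carnitine palmitoyltransferase of the endoplasmic reticulum, had 27.9, 22.8, 26.7 and 27.0 FPKM in E13.5 libraries titled control and 1.96, 1.78, 1.20 and 1.44 FPKM in those titled mutant. Its P0 values were 1.26, 2.50, 2.56 and 1.15 FPKM in controls and 12.3, 13.6, 12.7 and 11.8 FPKM in mutants. The 4 groups fell into a high and a low level at each stage, and the high groups were the titled controls at E13.5 and the mutants at P0. At both stages the difference was large, at -3.39 and 2.28 (standard error 0.15 each), and the response was larger at E13.5 under either grouping (stage difference by column name -1.11, adjusted p = 0.00111).

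*Ddit4l*, an inhibitor of mTOR signalling, went from 8.64 ± 1.5 to 0.205 ± 0.0626 FPKM at E13.5 and from 0.538 ± 0.460 to 7.26 ± 1.32 FPKM at P0. The P0 controls with the higher values of *Ddit4l*, 0.819 and 1.03 FPKM, were controls 2 and 3, which carry *K14-Cre*, against 0.0665 and 0.238 FPKM in those without it. *Cpt1c*, *Ccng1* and *Eda2r*, a receptor gene of the tumor necrosis factor receptor family, were likewise higher in those 2 controls. *Eda2r* had 1.07 and 0.972 FPKM there, against 0.310 and 0.254 FPKM in controls 1 and 4. By label controls 2 and 3 are also *Sas-4* fl/wt, so Cre can delete the floxed allele in them. Their *Cenpj* values were lower than those of controls 1 and 4. Cre and loss of that allele cannot be told apart here, and what each contributes was not tested. With only controls 2 and 3 the log2 difference of *Cdkn1a*, *Cpt1c* and *Ddit4l* at P0 stayed above 0 and past the threshold. In the same list 6 of 25 genes were lower in P0 mutants, a smaller share than the 38.6% of all genes. *Xpc* and *Rrm2b*, of DNA repair and nucleotide supply, had P0 differences of -0.42 and -0.53, and *Sesn1* and *Pltp* of -0.76 and -0.84, with none of the 4 called at E13.5. The other two of the 6 were called at both stages. *Ddb2*, which recognizes ultraviolet damage, was higher in the libraries titled mutant (11 ± 0.572 and 13.7 ± 0.819 FPKM) and lower in P0 mutants (13.3 ± 0.848 and 7.58 ± 0.485 FPKM). *Ak1*, an adenylate kinase gene, was lower at both stages by title. Without label number 67 the E13.5 difference of *Ddb2* did not pass (adjusted p = 0.166), and that of *Ak1* at P0 did not pass in 4 of 24 settings.

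Among all genes whose groups were apart at both stages, the largest paired differences of this kind were in *Abcb1b*, *Ddit4l*, *Cpt1c*, *Ptp4a3* and *Serpine2*, ranked by the smaller of their 2 differences. *Abcb1b* and *Ddit4l* were under 1 FPKM in every E13.5 library titled mutant and passed the filter there through the titled controls alone. *Abcb1b*, a drug efflux transporter, had 5.42 to 8.94 and 0.0681 to 0.344 FPKM at E13.5 and 1.17 to 3.71 and 16.1 to 19.6 FPKM at P0. *Serpine2*, an inhibitor of secreted serine proteases, had 116, 96.0, 121 and 121 FPKM in libraries titled control and 30.1, 29.4, 37.2 and 30.4 FPKM in those titled mutant. Its P0 values were 8.07, 11.4, 9.56 and 8.56 FPKM in controls and 72.5, 85.1, 79.2 and 101 FPKM in mutants. Unlike *Cdkn1a*, *Serpine2* had the larger response at P0 under either grouping (stage difference by title 4.85 and by column name 1.23, adjusted p = 1.76e-11 and 5.84e-05). Among all 352 genes of this kind, 53 had a larger response at P0, 51 at E13.5 and 248 at neither stage under both groupings, with median log2 differences of -0.53 at E13.5 and 0.56 at P0.

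**Figure D3:**
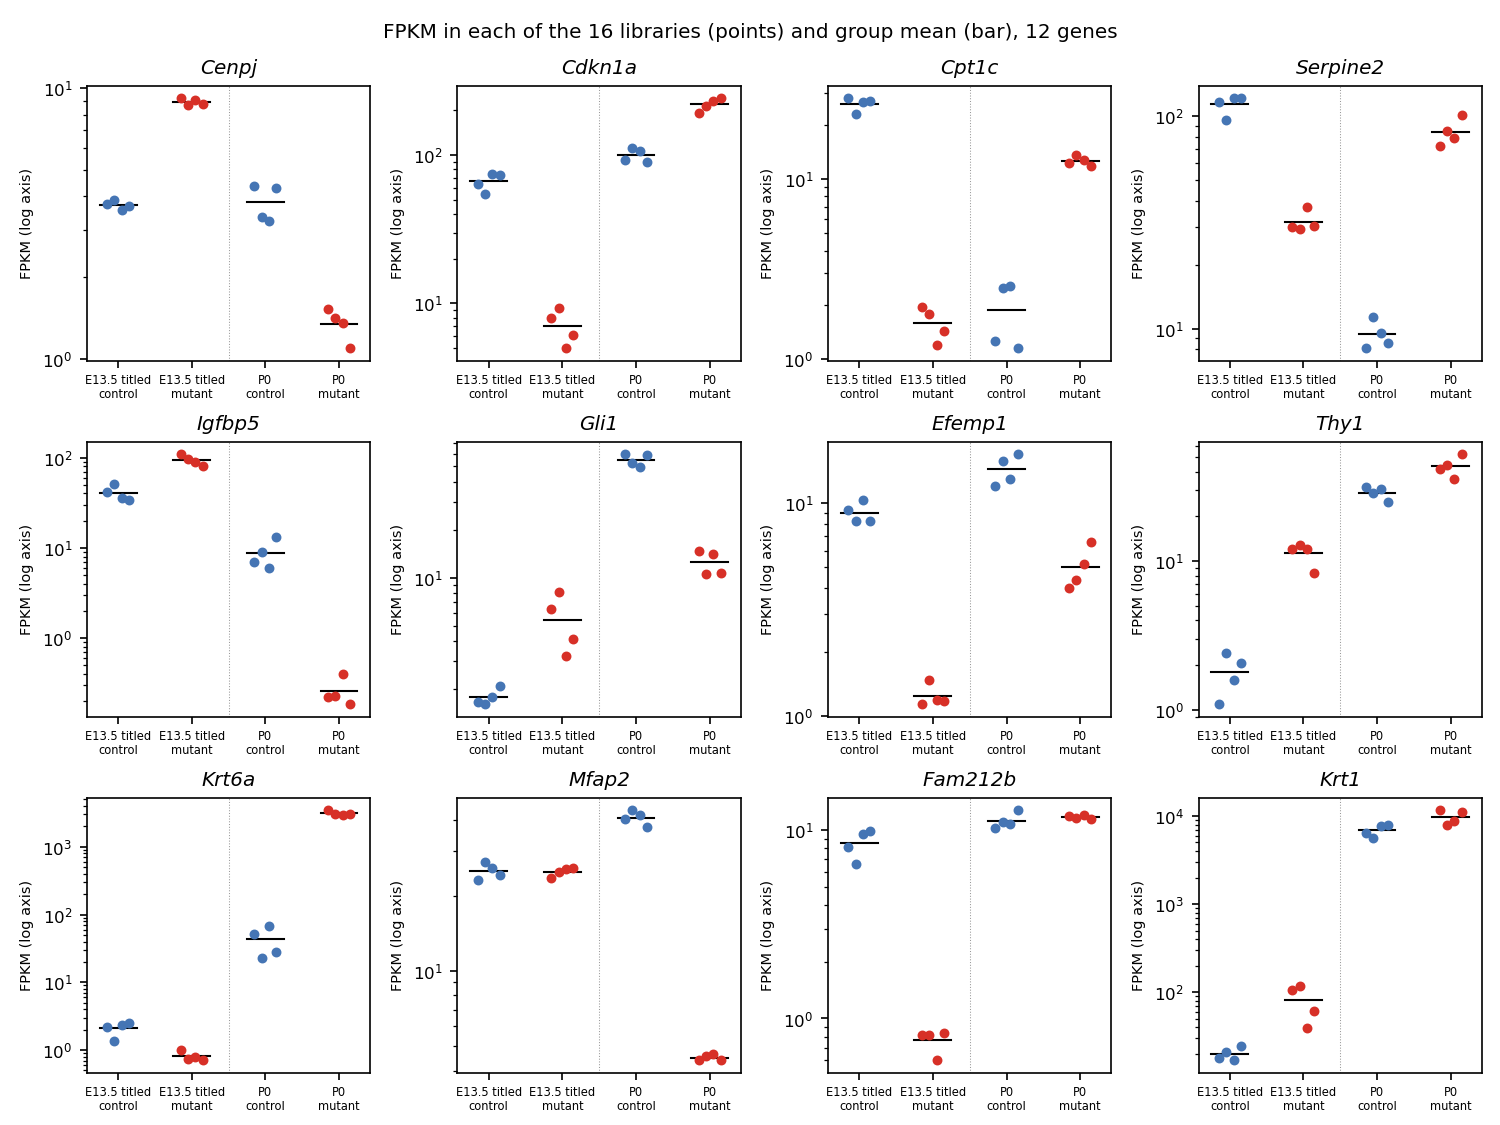
FPKM of 12 genes on a log axis in each of the 16 libraries, with points for libraries and a bar for the mean of the 4 libraries of a group. *Cdkn1a*, *Cpt1c* and *Serpine2* are low in the E13.5 libraries titled mutant and high in P0 mutants, *Cenpj*, *Igfbp5* and *Gli1* run the other way, *Krt6a* and *Mfap2* separate mainly at P0, and *Fam212b* separates at E13.5 only.

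Genes that were higher in the E13.5 libraries titled mutant and lower in P0 mutants (360) included genes of hair follicle growth, of Hedgehog signalling and of the matrix beside the epidermis. Hedgehog signals pass from the placode to the dermis and are read through GLI transcription factors. *Gli1*, itself a target of the pathway, had 1.66, 1.60, 1.77 and 2.09 FPKM in the libraries titled control and 6.36, 8.11, 3.22 and 4.11 FPKM in those titled mutant. Its P0 values were 59.4, 52.3, 49.6 and 58.6 FPKM in controls and 14.8, 10.5, 14.1 and 10.7 FPKM in mutants. The groups were apart at both stages, and the response was larger at P0 under either grouping (stage difference by column name -0.91, adjusted p = 0.0154). That call did not hold in 4 of 29 settings, such as without label number 67 (adjusted p = 0.0683) or with only Cre-carrying P0 controls (adjusted p = 0.076). Of 12 tested genes of the Hedgehog list, 10 were lower in P0 mutants and none higher, against 38.6% and 14.5% of all genes. The median P0 difference of the list was -0.64, against -0.15 for all genes.

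The list of hair placode and follicle progenitor genes had a median of -0.99 at P0 and 0.26 at E13.5, against -0.15 and 0.00 for all genes. Of 17 tested, 15 were lower and none higher in P0 mutants, against 38.6% and 14.5% of all genes. In the libraries titled mutant 6 were higher and none lower, against 4.45% and 5.85%. Among them 8 responded at P0 only and 4 were called at both stages with opposite signs by title. *Edar*, the ectodysplasin receptor gene of the placode, had 15.4 to 17.0 and 14 to 15.3 FPKM at E13.5 and fell at P0 from 24.9 to 32.6 FPKM in controls to 4.03 to 10.4 FPKM in mutants. *Foxi3*, a transcription factor gene downstream of ectodysplasin, had 28.1 to 34.8 FPKM in P0 controls and 1.87 to 5.28 FPKM in P0 mutants. At E13.5 *Foxi3* had 9.25 to 11 FPKM in libraries titled control and 12.9 to 15.6 FPKM in those titled mutant, without overlap, and its difference there passed only when the stage was fitted on its own (0.47, adjusted p = 0.0896 in the shared fit and 0.00225 on its own).

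Among Wnt response genes 10 of 11 were lower in P0 mutants, against 38.6% of all genes, and 2 were higher in the libraries titled mutant, against 4.45%. The median P0 difference of this list was -0.70, against -0.15 for all genes. The P0 counts of the Hedgehog, hair placode and Wnt lists are for values as deposited. Counts after scaling are not given for them, so how far these counts depend on the shift at P0 is open. *Krt15*, a keratin of basal and follicle stem cells, went from 213 ± 49.0 to 324 ± 49.4 FPKM at E13.5, where 1 control library lay within the range of the titled mutants, and from 1588 ± 124 to 136 ± 37.0 FPKM at P0. Its E13.5 difference did not pass in 11 of 30 settings, with an adjusted p of up to 0.406 without label number 67. *Gata3*, a transcription factor gene of the epidermis and inner root sheath that p63 regulates, had 24.1 to 25.6 and 34.1 to 42.7 FPKM at E13.5 and 47.8 to 53.7 and 34.3 to 37.4 FPKM at P0. The stage difference of *Gata3* passed by title (-1.09, adjusted p = 1.3e-07) and not by column name (0.17, adjusted p = 0.167).

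The pairs of largest size in this kind were in *Frem1*, *Igfbp5*, *Gli1*, *Slc22a4* and *Postn*. *Igfbp5*, which binds insulin-like growth factors, had 33.7 to 50.8 and 81.5 to 108 FPKM at E13.5 and 5.92 to 13.3 and 0.185 to 0.398 FPKM at P0. *Postn*, the gene of the matrix protein periostin, had 128 to 172 and 290 to 325 FPKM at E13.5 and 260 to 297 and 31.9 to 61.5 FPKM at P0. Both had a larger response at P0 under either grouping, as did 145 of the 360 genes, and none of the 360 had a larger response at E13.5. *Igfbp5* was under 1 FPKM in every P0 mutant and passed the filter at P0 through the controls alone.

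Same-sign responses by title were fewer. In the 108 genes that were lower at both stages the leading ones were *Ptprv*, *Efemp1*, *Myl9*, *Krt8* and *Arl4c*, and the E13.5 difference of *Myl9* did not pass in 7 of 29 settings. *Krt8*, a keratin of simple epithelium and periderm, had 16.4 to 26.2 and 8.57 to 13.7 FPKM at E13.5 and 3.68 to 4.89 and 0.257 to 0.940 FPKM at P0. It passed the filter at P0 through the controls alone, being under 1 FPKM in every P0 mutant. *Efemp1*, which encodes fibulin-3 of elastic fibres, had 8.22 to 10.4 and 1.13 to 1.47 FPKM at E13.5 and 12.1 to 17.0 and 3.98 to 6.60 FPKM at P0. By column name these genes were higher in mutants at E13.5 and lower at P0.

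The 34 genes higher at both stages by title included genes of the differentiating layers. *Dsg1b*, a desmoglein gene of suprabasal desmosomes, had 1.23 to 1.79 and 2.65 to 4.31 FPKM at E13.5 and 16 to 23.8 and 23.8 to 51.0 FPKM at P0, where the highest control and the lowest mutant both read 23.8 FPKM. Its E13.5 difference did not pass without label number 67 (adjusted p = 0.0592). *2610528A11Rik* had 1.47 to 2.31 and 4.16 to 6.05 FPKM at E13.5 and 26.3 to 56.7 and 202 to 225 FPKM at P0, with a larger response at P0 under either grouping. *Thy1*, a surface antigen gene of T cells and fibroblasts, had 1.09 to 2.40 and 8.39 to 12.8 FPKM at E13.5 and 25 to 31.6 and 35.7 to 52.2 FPKM at P0. Its response was larger at E13.5 under either grouping (stage difference by title -1.59 and by column name 2.72), and its P0 difference did not pass in 2 of 30 settings.

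Responses at P0 only that were higher in mutants were led by genes of activated keratinocytes. Of 18 genes of this list with values, 9 passed the filter and were tested. Among the 9, 7 were higher and none lower in P0 mutants, and 6 of them responded at P0 only, against 4.26% of all genes. *Krt6a*, a keratin of wounded epidermis, had 52.3, 23.1, 68.8 and 28.1 FPKM in P0 controls and 3428, 3047, 2906 and 3009 FPKM in P0 mutants. Its E13.5 values were 2.19, 1.36, 2.36 and 2.49 FPKM in libraries titled control and 0.993, 0.732, 0.803 and 0.704 FPKM in those titled mutant. The P0 difference of *Krt6a* was 6.27 (standard error 0.25) and the stage difference 7.03 by title and 5.5 by column name. The E13.5 groups were low but apart, and their difference of -0.77 missed the threshold in the shared fit (adjusted p = 0.0603) and passed when E13.5 was fitted on its own (adjusted p = 0.00321). *Krt6a* then counts as called at both stages, though it passed the filter at E13.5 through the titled controls alone, which favoured a difference there. *Krt6b*, its near-identical neighbour with which it may share reads, had 0 to 0.470 FPKM at E13.5 and was not tested.

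*S100a9*, an antimicrobial calcium-binding protein gene, had 1.57 to 3.55 and 1.04 to 3.36 FPKM at E13.5 and 1.07 to 5.86 and 110 to 161 FPKM at P0. *Sprr1b*, a precursor of the cornified envelope, had 0.186 to 1.56 FPKM over the E13.5 libraries and 12 to 94.2 and 990 to 1383 FPKM at P0. Of 15 *Sprr* genes with values only 3 passed the filter and were tested, and all 3 responded at P0 only. *Nrg1*, the ErbB ligand neuregulin 1, had 1.5 to 2.40 and 2.03 to 3.06 FPKM at E13.5, and rose at P0 from 0.199 to 1.09 FPKM in controls to 11 to 27.4 FPKM in mutants. At P0 *Nrg1* could pass the filter only because of the mutants, which favoured a difference there. *Gjb2*, the gene of connexin 26, showed no difference past the threshold between its E13.5 groups (217 to 281 and 245 to 297 FPKM) and rose at P0 from 40.1 to 55.0 FPKM to 194 to 284 FPKM.

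Genes of the upper layers rose at P0 only in part. Of 32 granular and cornified genes with values, 14 were listed at 0 at E13.5 and only 7 were tested, so the stages were not compared for most of them. Among the 7, 5 were higher in P0 mutants (against 14.5% of all genes), none was called at E13.5 and 4 responded at P0 only. *Tgm1*, the transglutaminase gene of the cornified envelope, had 20.4 to 23.1 and 16.7 to 24.2 FPKM at E13.5 and 15.5 to 25.3 and 62.9 to 80.8 FPKM at P0. Of 15 tested spinous genes, 6 were higher in the libraries titled mutant, 8 were higher in P0 mutants and none was lower in either, against 4.45% and 14.5% of all genes higher. Without the libraries of label number 67 the count at E13.5 was 1. For 9 of the 15 no stage difference passed by title. *Krt1*, *Krt10*, *Dsg1a* and *Dmkn* passed at E13.5 and not at P0, though *Krt10* and *Dmkn* had the same sign at both stages and were not called different between them, *Dsc1*, *Sbsn*, *Klf4* and *Serpinb2* responded at P0 only, and *Dsg1b* and *Grhl1* passed at both. The cited spinous genes beyond *Dsg1b*, *Krt1*, *Klf4* and *Serpinb2* were named after their values were seen.

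In the glycolysis list 11 of 13 tested genes were higher and 1 lower in P0 mutants, against 14.5% and 38.6% of all genes, and 6 responded at P0 only, all higher, against 4.26%. *Eno1*, an enolase gene, had 295 to 341 and 282 to 339 FPKM at E13.5, in overlapping groups, and 179 to 232 and 338 to 353 FPKM at P0. *Pkm*, the pyruvate kinase gene, rose at P0 from 375 ± 44.9 to 658 ± 24.2 FPKM, with 602 ± 19 and 651 ± 40.3 FPKM at E13.5. The P0-only count was 8 with median-of-ratios scaling and 4 with quantile normalization.

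Responses at P0 only that were lower in mutants were led by *Krt71*, *Col14a1*, *Penk*, *Mfap2*, *Cd74* and *Foxi3*. *Mfap2*, which encodes a glycoprotein of elastic microfibrils, had 23.1, 27.1, 25.8 and 24.1 FPKM in E13.5 libraries titled control and 23.6, 24.8, 25.5 and 25.7 FPKM in those titled mutant. It fell at P0 from 40.3, 43.7, 41.9 and 37.6 FPKM in controls to 4.39, 4.57, 4.65 and 4.40 FPKM in mutants. The E13.5 groups were interleaved, with a difference of 0.00 (standard error 0.06), so the 2 stage differences were -2.92 by title and -2.93 by column name. *Col14a1*, a fibril-associated collagen gene, had 2.49 to 4.65 and 3.86 to 4.74 FPKM at E13.5 and 28.4 to 38.0 and 1.17 to 2.29 FPKM at P0. *Penk*, which encodes proenkephalin, had 43.8 to 77.2 and 56.7 to 74.9 FPKM at E13.5 and 70.3 to 94.6 and 4.81 to 7.32 FPKM at P0. *Krt71*, an inner root sheath keratin, had 15.2 to 67.6 and 1.22 to 2.89 FPKM at P0 and 1.01 to 2.15 and 0.106 to 0.298 FPKM at E13.5, where its difference passed only when that stage was fitted on its own (adjusted p = 0.0562 in the shared fit and 0.000784 on its own). *Krt71* passed the filter at E13.5 through the titled controls alone, which favoured a difference there.

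None of the 28 tested genes of DNA replication was called at E13.5. At P0, 19 passed as lower and 1 as higher, leaving 8, against 38.6% of all genes lower, with a median log2 difference of -0.33 against -0.15 for all genes, and 13 responded at P0 only, all lower, against 15.7%. *Mcm2*, a subunit of the replicative helicase, had 79.5 to 83.6 and 76.6 to 81.8 FPKM at E13.5 and 66.3 to 79.3 and 46.3 to 53.3 FPKM at P0. The P0-only count was 5 with median-of-ratios scaling and 9 with quantile normalization, and 14 and 15 replication genes were then lower at P0, against 24.7% and 23.9% of all genes. Of 26 genes of mitosis, 3 were higher and 5 lower at P0 and none was called at E13.5, shares below those of all genes (14.5% and 38.6% at P0). Genes of cilium assembly were lower at P0 in 17 of 24 cases, against 38.6% of all genes, among them *Ift122*, an intraflagellar transport gene, with 5.29 to 5.71 and 5.60 to 5.84 FPKM at E13.5 and 3.60 to 4.58 and 1.58 to 2.59 FPKM at P0. The cilium genes lower at P0 numbered 12 with the former scaling and 8 with the latter, when 24.7% and 23.9% of all genes were lower. For 19 genes of centriole duplication the counts lower at P0 were 14 as deposited and 9 and 5 with those scalings, the last near the share of all genes, and *Cenpj* was the only one called at both stages.

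**Figure D4:**
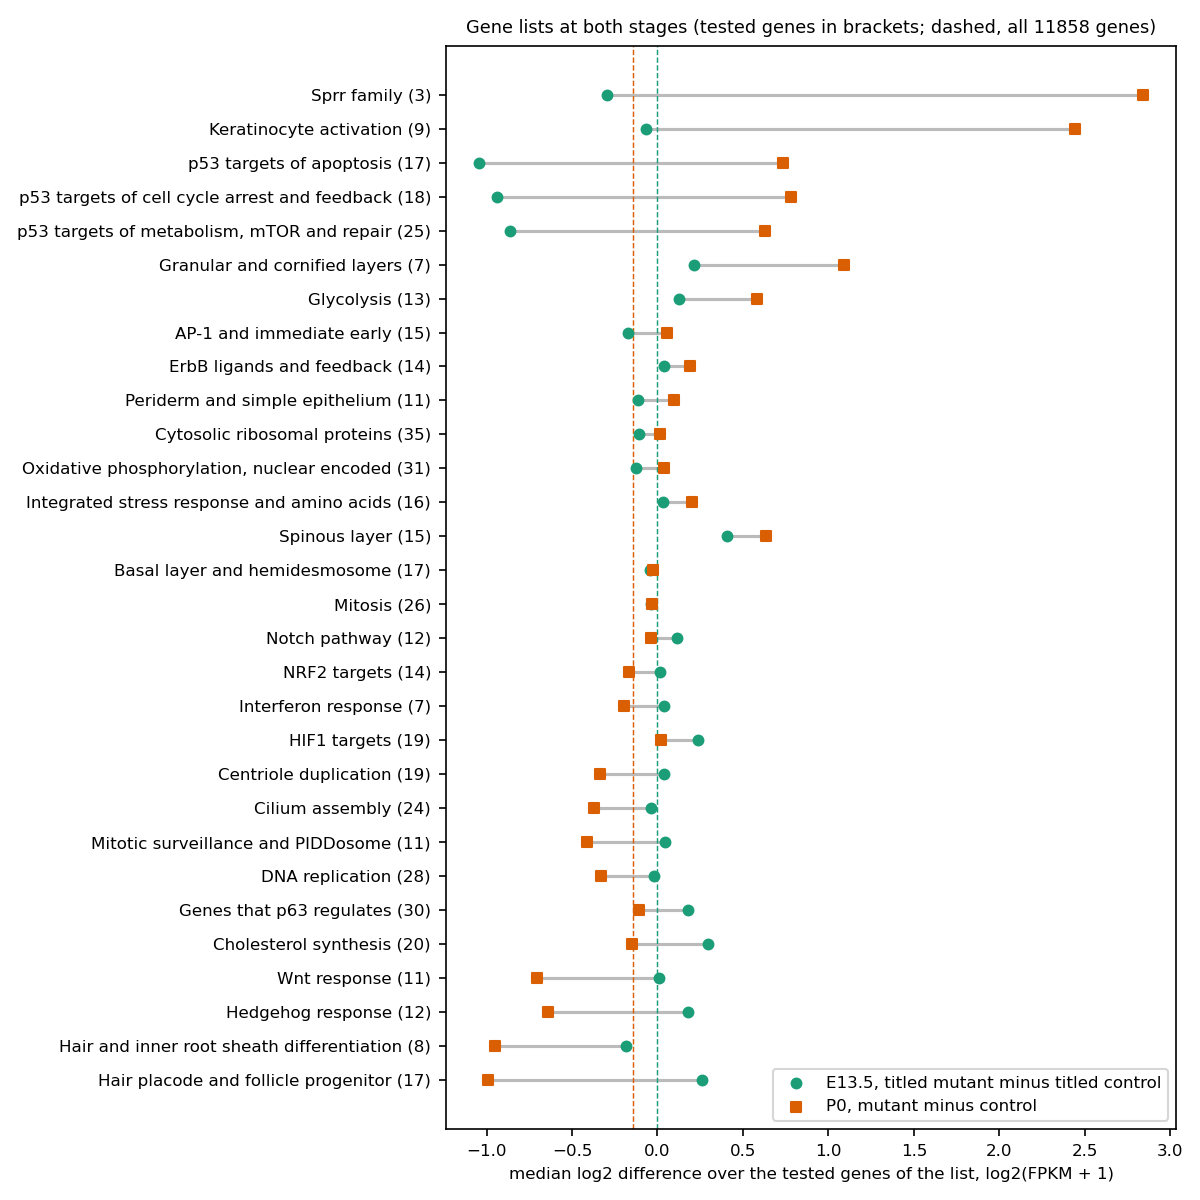
Median log2 difference of the tested genes of 30 gene lists at E13.5 (circles, libraries titled mutant minus titled control) and P0 (squares, mutant minus control), ordered by the median stage difference by title, with the medians of all 11858 genes dashed. The *Sprr* and activation lists reach the highest P0 medians (2.84 and 2.44), the 3 p53 lists cross from between -1.045 and -0.863 to between 0.628 and 0.78, and the hair placode list runs from 0.26 to -0.99.

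Responses at E13.5 only were few. The largest among genes lower in the libraries titled mutant were *Inpp5d*, *Fam212b*, *Dusp8*, *Dixdc1*, *Pid1* and *Plat*. The first 3 were under 1 FPKM in every library titled mutant and passed the filter at E13.5 through the titled controls alone. *Plat* did not pass without label number 67 (adjusted p = 0.0686). *Fam212b* had 8.16, 6.59, 9.56 and 9.85 FPKM in the libraries titled control and 0.813, 0.819, 0.599 and 0.839 FPKM in those titled mutant. In P0 keratinocytes its values were 10.2, 11, 10.8 and 12.7 FPKM in controls and 11.9, 11.6, 12 and 11.5 FPKM in mutants, in overlapping groups. The difference was -2.42 at E13.5 and 0.07 at P0 (standard error 0.10 each). *Inpp5d*, the gene of the inositol phosphatase SHIP1, had 6.40 to 8.87 and 0.477 to 0.717 FPKM at E13.5 and 3.83 to 5.22 and 2.29 to 5.62 FPKM at P0. *Dusp8*, a phosphatase gene of MAP kinases, had 1.96 to 3.29 and 0.162 to 0.258 FPKM at E13.5 and 2.64 to 4.46 and 2.65 to 5.67 FPKM at P0. By column name these 3 genes were higher in mutants at E13.5.

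Among genes higher in the libraries titled mutant at E13.5 only, *Krt1*, the keratin of the spinous layer, had 16.8 to 24.4 and 39.6 to 117 FPKM at E13.5 and 5623 to 7930 and 7914 to 11540 FPKM at P0. Its P0 difference of 0.50 missed the threshold in the shared fit (adjusted p = 0.118) and passed when P0 was fitted on its own (adjusted p = 0.0478). *Acsl1*, a long-chain acyl-CoA synthetase gene, had 3.85 to 5.27 and 8.47 to 12 FPKM at E13.5 and 41.0 to 50.1 and 28.4 to 49.5 FPKM at P0. Of 30 tested genes that p63 regulates, 3 responded at E13.5 only, all higher in the libraries titled mutant, against 1.05% of all genes. At P0 only, 14 responded, 8 higher and 6 lower, against 20% of all genes. The 3 were *Cldn1*, a claudin gene of tight junctions (21.8 ± 1.25 and 32.1 ± 0.892 FPKM at E13.5), *Col17a1*, a hemidesmosome collagen gene (32.9 ± 1.30 and 55.9 ± 4.68 FPKM), and *Klf5*, a transcription factor gene of basal cells (32.7 ± 2.51 and 50.3 ± 4.51 FPKM), named after their values were seen. The stage difference by column name, on which this class rests, did not pass for *Klf5* in 12 of 30 settings (adjusted p up to 0.14) and for *Col17a1* in 2 of 30. Among the 14, *Itgb4*, an integrin gene of hemidesmosomes, was higher in P0 mutants (log2 difference 0.72), and *Fgfr2*, a receptor gene of fibroblast growth factors, fell at P0 from 145 to 158 FPKM to 62.9 to 89.0 FPKM. The E13.5 difference of *Fgfr2* (0.12) missed the threshold in the shared fit (adjusted p = 0.366). It passed with that stage on its own (adjusted p = 0.0383).

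*Trp63* itself, the gene of p63, had 119 to 126 and 149 to 155 FPKM at E13.5 and 140 to 148 and 67.9 to 133 FPKM at P0. The groups were apart at both stages, and the stage difference passed by title (-0.78, adjusted p = 0.00403) and not by column name (-0.18, adjusted p = 0.513). The E13.5 difference of 0.30 missed the threshold in the shared fit (adjusted p = 0.194) and passed with that stage on its own (adjusted p = 0.000192), and the P0 difference of -0.48 did the reverse (adjusted p = 0.00814 and 0.0557). *Trp53* and *Trp73* were lower in P0 mutants (-0.32 and -0.46), with no stage difference past the threshold by title and stage differences of -0.42 and -0.81 by column name that passed (adjusted p = 0.015 and 0.00344). With median-of-ratios scaling neither P0 difference passed.

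**Figure D5:**
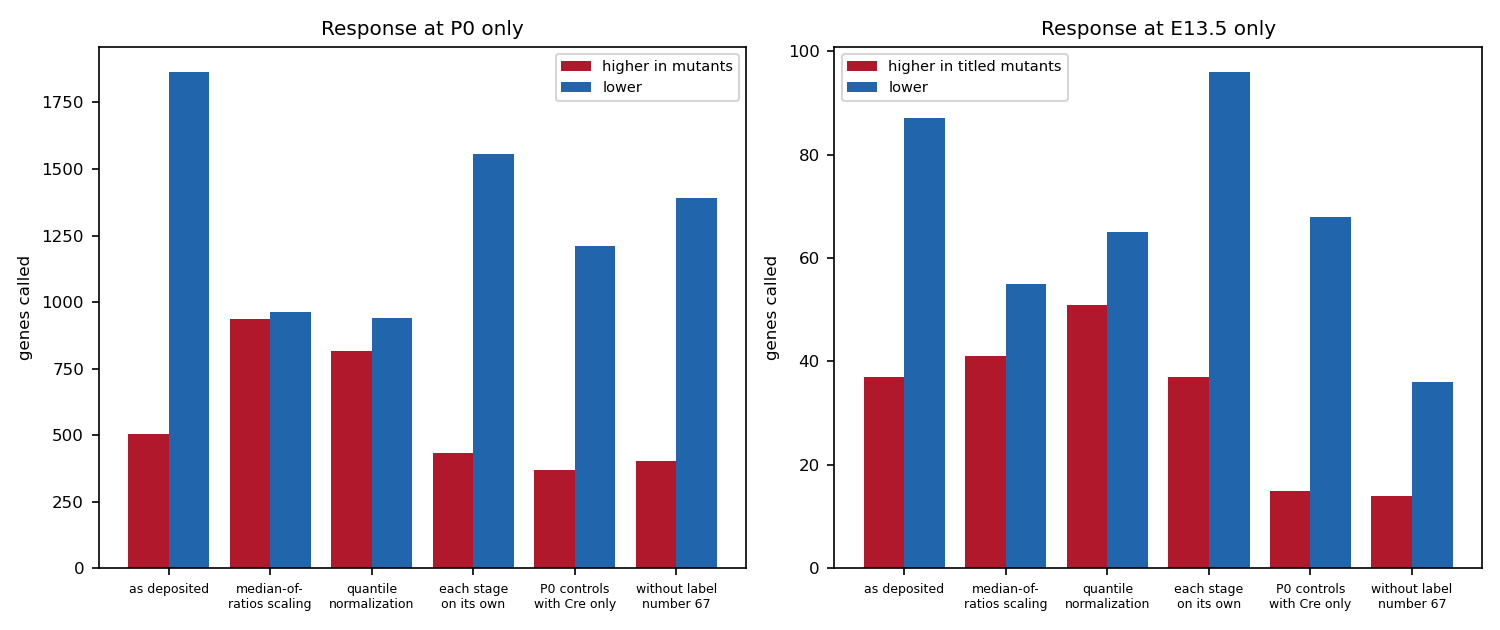
Number of genes on the y axis that responded at P0 only (left) and at E13.5 only (right), under 6 settings on the x axis. Red is higher and blue lower, in P0 mutants on the left and in the E13.5 libraries titled mutant on the right. The left bars go from 505 higher and 1865 lower to 936 and 964 after median-of-ratios scaling, and the right bars fall from 37 and 87 to 14 and 36 without the E13.5 libraries that carry label number 67.

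The makeup of the samples moved with stage and genotype too, and fewer cells of a type cannot be told apart in bulk RNA from less RNA per cell. Summed over 17 markers of myeloid and Langerhans cells, the level was 14 to 24.4 FPKM in libraries titled control and 16.5 to 20.8 FPKM in those titled mutant at E13.5, where *Cd207* was listed at 0. At P0 it was 250 to 379 FPKM in controls and 83.4 to 106 FPKM in mutants, and all 4 of its tested genes were lower there, among them *Cd74*, which responded at P0 only. The E13.5 difference of *Cd74* (0.359) missed the threshold in the shared fit (adjusted p = 0.334). It passed with that stage on its own (adjusted p = 0.0374). Over 12 melanocyte markers the sums were 91.6 to 107 and 73.7 to 76.3 FPKM at E13.5 and 246 to 318 and 346 to 715 FPKM at P0, and *Mlana* was lower at E13.5 by title and higher at P0. Merkel cell markers summed to at most 2.46 FPKM in each E13.5 library, and to 4.09 to 4.45 FPKM in P0 controls and 0.177 to 0.330 FPKM in P0 mutants. T cell markers summed to 12.7 to 15.9 and 23.5 to 27.5 FPKM at E13.5, where *Cd3g* and *Cd3d* were listed at 0, and to 54.1 to 66.5 and 44.2 to 60.0 FPKM at P0. Of the 2 tested T cell markers, *Thy1*, which fibroblasts also express, was higher in libraries titled mutant (2.15). *Lck* was not called at E13.5 (0.205, adjusted p = 0.164). Fibroblast markers gave 440 to 494 and 469 to 517 FPKM at E13.5 and 624 to 765 and 650 to 713 FPKM at P0, in overlapping groups. Of its 5 tested genes, the collagen gene *Col1a2* was higher in libraries titled mutant (1.005) and lower in P0 mutants (-1.52), the proteoglycan gene *Dcn* was lower at P0 (-0.78) and *Vim* higher (0.37), beside the matrix genes *Postn*, *Col14a1* and *Mfap2* above. The part of these cells in the gene responses above was not tested.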

How the data were processed

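RNA was sequenced in 8 E13.5 and 8 P0 libraries. The authors deposited 1 table of FPKM values per stage, made with the QuickNGS pipeline on mm10 and normalized separately. FastQC 0.11.5 and bcl2fastq in versions 2.17.1.14 and 2.18.0.12 are listed in the submitters' processing notes, and no source used here names the aligner. The tables hold no read numbers, so the depth is unknown. Values of 16 columns and 49452 genes were joined by Ensembl identifier. Genes with at least 1 FPKM in 4 libraries of each stage entered limma 3.58.1 as log2(FPKM + 1) under R 4.3.3 (4 group means, mean trend, two-sided, Benjamini-Hochberg over 11858 genes). The method was tested on simulated data, with 33 or 34 changed genes per setting. A log2 change of 1 was recovered as the larger response for 87.9% of genes at P0 and 70.6% at E13.5. For a change of 0.585 the shares were 44.1% and 39.4%. Python 3.11.15, pandas 2.3.3, numpy 2.4.6, scipy 1.17.1 and matplotlib 3.10.9 were used for the rest.

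Groups came from the titles, and for E13.5 also, reversed, from the column names. Named genes were *Cenpj* and those the study names, the largest effects of each kind with non-overlapping groups (6 per direction at 1 stage, 5 per sign pair at both), and up to 3 called members per list. The other genes named were chosen after their values were seen: *Btg1*, *Xpc*, *Rrm2b*, *Sesn1*, *Pltp*, *Ccng1*, *Gtse1*, *Rps27l*, *Eda2r*, *Ddb2*, *Ak1*, *Gata3*, *Cldn1*, *Klf5*, *Col17a1* and the spinous genes so marked. The members and lists were chosen with earlier results of these data known. Of 714 list genes, 699 had values and 15 are not analysed here. Alternatives were another pseudocount, filters, scalings, fits per stage, array weights, a sex term, subsets of libraries and the replicate block.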

Additional observations from a re-analysis of the deposited data

Results flagged for a closer look

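The difference between mutants and controls differed between stages, by its own test, for 5500 genes by title and 3893 by column name. It was larger at P0 for 2601 and at E13.5 for 186 under either grouping. *Cenpj* was among them by title, with a stage difference of -2.11 on the log2 scale. A single library lay apart from the other 3 of its group in 9 of 212 groups (53 genes with 4 groups each), by Dixon's test, and chance gives about 1 group in 20. At E13.5, the library titled mutant 3 was lowest for *Pmaip1* (6.72 FPKM against 9.09 to 9.33) and *Fam212b* (0.599 against 0.813 to 0.839) and highest for *Serpine2* (37.2 against 29.4 to 30.4). The library titled control 2 was highest for *Krt15* (286 against 181 to 195) and *Foxi3* (11 against 9.25 to 9.5). In P0 controls, control 3 was lowest for *Krt15* (1402 against 1642 to 1658) and highest for *Gjb2* (55 against 40.1 to 41.9), and control 1 was highest for *Ak1* (20 against 11.1 to 12.2). P0 mutant 2 was highest for *Abcb1b* (19.6 against 16.1 to 16.3). *Krt6b* was outside the genes tested because it was near 0 at E13.5, and averaged 2774 FPKM in P0 mutants against 55.6 FPKM in P0 controls.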

How the results depend on the processing

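No called difference of a named gene changed sign under any alternative that tested it, and the signs of other genes were not checked. The order of the stages by number of genes turned around in 1 alternative, the own-stage fits that kept only P0 controls with *K14-Cre* (3099 genes at E13.5 and 2083 at P0). Genes called at E13.5 (1222) were 809 with a mean of at least 5 FPKM, 4075 with array weights, 3152 with each stage fitted on its own, 3099 when that fit kept only P0 controls with *K14-Cre*, 3187 when it used median-of-ratios scaling, and 360 without label number 67. In the same order, calls at both stages (854) were 557, 2625, 1541, then 1511 with the scaling and 270 without label 67. A larger response at E13.5 (186) was found for 343 genes with no filter, 387 with array weights, 76 without label 67 and 89 with own-stage fits and Cre controls, and a response at E13.5 only (124) for 270, 283, 50 and 56. Own-stage fits with Cre controls gave 2083 genes at P0, 1119 with a larger response at P0, 855 at P0 only, 3383 by title and 1761 by column name. P0 only was 1572 with own-stage fits and scaling. Leaving out 1 library gave 718 to 2298 calls at E13.5, 5501 to 6791 at P0, 515 to 1560 at both, 130 to 250 larger at E13.5, 2099 to 3201 larger at P0, 89 to 178 at E13.5 only, 1925 to 2744 at P0 only, 4906 to 6268 by title and 3167 to 4854 by column name. The highest count was without P0 mutant 4 in each case. Same-numbered libraries did not pair (correlations -0.015 to 0.089 at E13.5 and 0.004 to 0.135 at P0). With the replicate block the counts were 5305 by title, 3566 by column name, 999 at E13.5, 6151 at P0, 705 at both, 2372 and 172 larger at P0 and E13.5, and 2202 and 109 at those stages only. The causes were not tested. The unknown depth limits what low values show.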
